A study of Mus musculus with 40 samples.

Results

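WAPL binding was compared between small pre-B cells of Brwd1-/- mice (labelled BRWD1KO, here KO) and wild-type small pre-B cells exposed to oligomycin A (labelled ATPneg). The comparison takes 4 of the series' 40 libraries, 2 per group, each deposited as a list of high-quality peaks. The lists held 3280 and 4623 peaks in ATPneg 1 and 2, and 52236 and 68700 peaks in KO 1 and 2. A consensus peak of a group was a peak of its first library that overlapped a peak of its second by at least 1 base, which left 2183 ATPneg and 45322 KO consensus peaks. ATPneg peaks that overlapped a KO consensus peak are called shared (1960 peaks), the other ATPneg consensus peaks ATPneg-only (223), and KO consensus peaks without an ATPneg consensus peak KO-only (43366).

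The series maps WAPL, the cohesin proteins RAD21 and SMC3, their loader NIPBL, the DNA-binding protein CTCF and the marks H3K4me1 and H3K27ac, by chromatin immunoprecipitation and sequencing (ChIP-seq), with 36 ChIP and 4 input libraries. All cells were small pre-B cells, a resting stage of B cell development at which the immunoglobulin light chain genes are rearranged, flow sorted from mouse bone marrow. WT and KO cells were used without culture. ATPneg cells came from WT marrow and were cultured with 126 nM oligomycin A, an inhibitor of the mitochondrial ATP synthase, for 2 h, so culture and drug cannot be told apart within these groups. The 2 libraries of a group are biological replicates in the series' design text; the number of animals behind each, and whether animals were pooled, is not given in the sources used here. KO peaks were matched to KO input and ATPneg and WT peaks to WT input, so genotype, treatment and input differ together. In sorted bulk chromatin, a site bound in fewer cells and a site bound more weakly in each cell cannot be told apart.

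Cohesin is a ring-shaped ATPase that holds DNA loops. NIPBL helps to load it and stimulates its ATPase, CTCF arrests it at oriented motifs, and WAPL opens the ring and releases it from chromatin. BRWD1 is a reader of histone modifications that is expressed late in B cell development, where it restricts early developmental enhancers and helps to open the Igk locus for recombination.

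Several lists limit the comparison. The first WT CTCF list held 21429 peaks and the second 67796, of which only 24.5% overlapped the first, so CTCF results are also given by single CTCF list. The RAD21 lists differed as much. RAD21 KO 1 and 2 held 16283 and 38712 peaks, and 17.9% of the second list overlapped the first. RAD21 ATPneg 1 and 2 held 16375 and 35784, with 26.2% overlapping. The peak names inside the lists of NIPBL KO 2 and NIPBL WT 1 carry each other's sample name, so the lists of NIPBL WT are used here by single list and those of NIPBL KO not at all. Peak names in the H3K27ac KO and H3K4me1 WT lists also carry another sample's name. The genotype tag of the H3K27ac and H3K4me1 KO samples reads WT, and their titles were followed. The H3K27ac shares below use the WT lists only. The peak lists do not measure Brwd1 RNA or protein, and the genotype label was not checked. Of 9 markers of small pre-B cells, Pax5, Ebf1, Rag1, Cd79b and Il7r had a WT H3K27ac consensus peak within 1 kb of their annotated start, while Vpreb1, Igll1, Cd79a and Blnk had none. A peak was present for 4 of 10 T cell, 1 of 9 erythroid and 1 of 10 myeloid markers, and the part of other cells in the results was not tested. Within the 127769 WAPL regions of the count table, KO 1 and 2 had 30496715 and 28011360 reads and WT 1 and 2 had 21488840 and 21978527. ATPneg libraries have no counts there, so their depth is unknown.

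Promoter sequences are shown for 4 members whose peaks touched the annotated start of a gene, because they stand for the classes described below: Pgk1 is shared, and Ankrd39, Comtd1 and Psmd5 are ATPneg-only. The 250 bases before the start are given 5′ to 3′ on the gene's strand, from RefSeq (GRCm38.p6), whereas peak positions are in mm9. Of 15 members with a peak within 250 bases of a start, 7 matched an entry. Capitals mark a CTCF core (CC, 3 bases of any kind, AG, 2 of any kind, GGC) or a GC box (GGGCGG), searched on both strands.
Pgk1, chrX:106186850-106187099, plus strand: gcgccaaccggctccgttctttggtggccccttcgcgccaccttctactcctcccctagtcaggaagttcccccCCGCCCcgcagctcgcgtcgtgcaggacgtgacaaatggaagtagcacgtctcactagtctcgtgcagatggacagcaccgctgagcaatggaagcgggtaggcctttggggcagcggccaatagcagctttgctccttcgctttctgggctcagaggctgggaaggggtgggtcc
Ankrd39, chr1:36547253-36547502, minus strand: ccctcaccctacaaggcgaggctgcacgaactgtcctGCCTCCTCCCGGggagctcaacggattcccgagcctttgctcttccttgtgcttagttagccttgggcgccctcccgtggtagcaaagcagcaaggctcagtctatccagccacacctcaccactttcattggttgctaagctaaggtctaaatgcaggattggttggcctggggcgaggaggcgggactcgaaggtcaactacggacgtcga
Comtd1, chr14:21848911-21849160, minus strand: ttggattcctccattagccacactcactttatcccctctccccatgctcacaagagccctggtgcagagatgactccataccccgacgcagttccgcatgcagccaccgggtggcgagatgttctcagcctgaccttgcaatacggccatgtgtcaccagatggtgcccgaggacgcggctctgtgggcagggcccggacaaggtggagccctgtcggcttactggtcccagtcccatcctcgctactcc
Psmd5, chr2:34870963-34871212, minus strand: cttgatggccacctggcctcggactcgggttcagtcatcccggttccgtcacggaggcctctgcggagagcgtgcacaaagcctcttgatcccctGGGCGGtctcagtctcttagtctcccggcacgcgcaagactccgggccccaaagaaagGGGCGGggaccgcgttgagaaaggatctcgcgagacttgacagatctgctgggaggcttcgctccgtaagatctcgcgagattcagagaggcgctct

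The Ankrd39 window held 1 CTCF core match, on the opposite strand, and the Pgk1 and Psmd5 windows 1 and 2 GC boxes. The Comtd1 window held neither. Over 27025 RefSeq promoter windows of the same length, 7.08% held the CTCF core letters and 32.9% a GC box. A match is a description of the letters, and a window without one says nothing about the factor.

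Nearly all ATPneg WAPL peaks lay at sites that were also WAPL peaks in KO cells, while most KO peaks had no ATPneg counterpart. Of 2183 ATPneg consensus peaks, 1960 (89.8%, 95% exact binomial interval 88.4 to 91.0) overlapped a KO consensus peak, and the 4 pairs of single libraries gave 85.9% to 92.3%. Conversely, 1956 of 45322 KO consensus peaks (4.32%, interval 4.13 to 4.51) overlapped an ATPneg consensus peak, and the 4 pairs gave 4.33% to 7.59%. These intervals cover counting error only. The KO lists were longer, and with each KO list reduced to its 3952 highest-scoring peaks the ATPneg share was 34.6% and the KO share 26.0%.

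Untreated WT cells held most of the same sites. Of the ATPneg consensus peaks, 2070 (94.8%) overlapped a WT WAPL consensus peak, against 22663 of the KO consensus peaks (50%). Split by both lists, 1935 ATPneg peaks had a KO and a WT peak, 25 a KO peak only, 135 a WT peak only and 88 neither. Of the 223 ATPneg-only peaks, 9 had a peak in KO 1 alone and 109 in KO 2 alone, and 105 had none in either. For most of the ATPneg-only peaks, the class thus rested on the absence of a peak from 1 KO library.

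Shared sites were at the strong end of the KO lists. The deposited score of a peak, which is at least 5 in each list and whose exact definition is not given in the sources used here, was ranked within its own list. KO 1 peaks at an ATPneg consensus peak had a median score of 28.4 and a median percentile of 90.2, against 11.2 and 48.4 for the other KO 1 peaks. In KO 2 the median percentiles were 93.7 and 48.6. With each KO list divided into 10 score classes of equal size, the share at an ATPneg peak ran from 0.25% in the lowest class to 19.0% in KO 1 and from 0.0964% to 19.6% in KO 2. Within the ATPneg lists, peaks at a KO consensus peak had median percentiles of 53.4 and 50.6, and those without one 25.8 and 40.3.

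**Figure D1:**
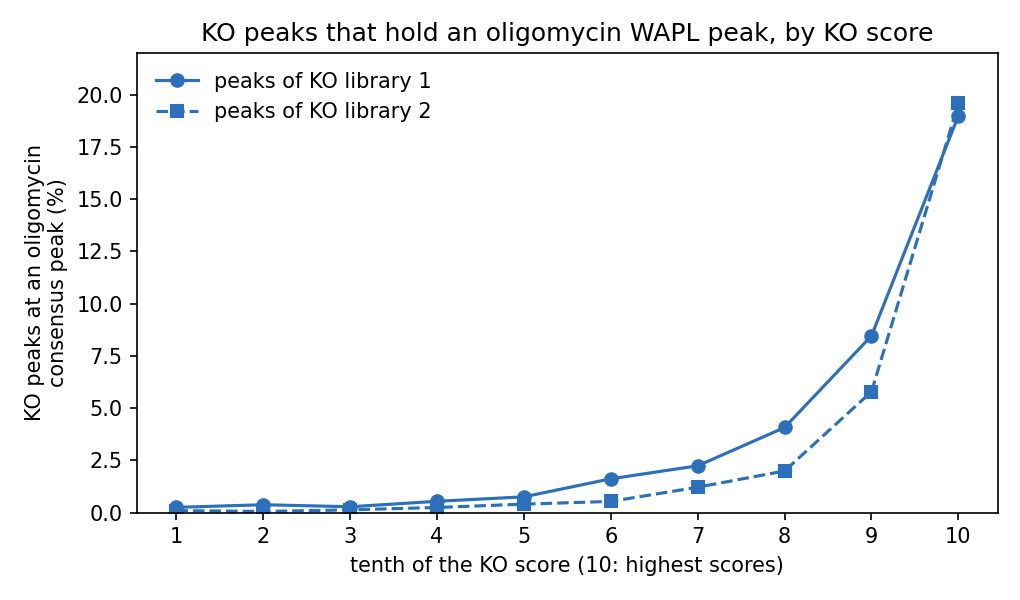
Share of KO WAPL peaks that overlap an ATPneg (oligomycin) consensus peak (vertical axis, percent) by class of the deposited KO score (horizontal axis, 10 classes of equal size, highest last), 1 line per KO library. The share was 0.25% and 0.0964% in the lowest class and 19.0% and 19.6% in the highest.

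CTCF sites made up a larger part of the ATPneg lists than of the KO lists. WT CTCF consensus peaks covered 19.2% and 13.3% of the peaks of ATPneg 1 and 2, 1.41% and 1.21% of KO 1 and 2, and 0.947% and 0.858% of WT 1 and 2. Those also present as KO CTCF peaks covered 6.04% and 3.22% of ATPneg 1 and 2, against 0.371% and 0.336% of KO 1 and 2. Those without a KO CTCF peak covered 13.2% and 10.04%, against 1.04% and 0.873%. The ATPneg mean of 16.2% ± 4.23 (SD, n = 2) exceeded the KO mean of 1.31% ± 0.142 (SD, n = 2) by 14.9 percentage points, and the libraries of the groups did not overlap. With each KO list reduced to its highest-scoring peaks as above, the KO mean was 5.64% and the difference 10.6 percentage points. The two-sided exact permutation p was 0.33, the smallest that 2 against 2 libraries allow, here and in the comparisons below. By single CTCF list, the first gave 20.3% and 14.6% for ATPneg against 1.45% and 1.28% for KO, and the second 95.8% and 92.7% against 61.5% and 53.0%. The order of the groups was the same with either list, but the level depended on it.

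Cohesin and loader peaks also covered more of the full ATPneg lists than of the full KO lists, but at WT RAD21 the WT lists had the largest share. WT RAD21 consensus peaks covered 27.8% and 23.1% of ATPneg peaks and 4.91% and 5.74% of KO peaks, but 39.1% and 38.3% of WT WAPL peaks (exact permutation p = 0.33 for ATPneg against KO). With each KO list reduced to its highest-scoring peaks, which changes list length and score together, the difference was -0.75 percentage points. RAD21 peaks mapped in ATPneg cells covered 40.2% and 32.4% of ATPneg WAPL peaks, against 3.15% and 2.93% of KO WAPL peaks. By single RAD21 list of ATPneg cells, the first gave 62.0% and 62.3% against 11.8% and 10.6%. The second gave 50.2% and 40.2% against 5.03% and 4.59%. SMC3 peaks of ATPneg cells covered 72.7% and 61.7%, against 8.44% and 6.74%. NIPBL peaks of ATPneg cells covered 82.1% and 80.6%, against 14.5% and 11.6%. The RAD21, SMC3 and NIPBL sets of ATPneg cells come from treated cells, so treatment is shared with the ATPneg WAPL lists. These sets were not compared with KO lists of reduced length.

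H3K27ac, a mark of active promoters and enhancers, did not separate the groups. WT H3K27ac consensus peaks covered 88.7% and 91.4% of ATPneg peaks and 92.2% and 88.0% of KO peaks (exact permutation p = 1), against 45.5% and 43.5% of WT WAPL peaks. The libraries of ATPneg and KO overlapped, and with 2 per group this does not show that they are alike. Widths were narrow in both groups, with a median of 119 bp in each ATPneg list and 131 and 129 bp in KO 1 and 2, against 203 bp in both WT lists. Promoters, taken as 2 kb on either side of an annotated start, held 3.81% and 3.59% of ATPneg peaks and 2.87% and 2.81% of KO peaks. Neither order could fall below an exact permutation p of 0.33.

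**Figure D2:**
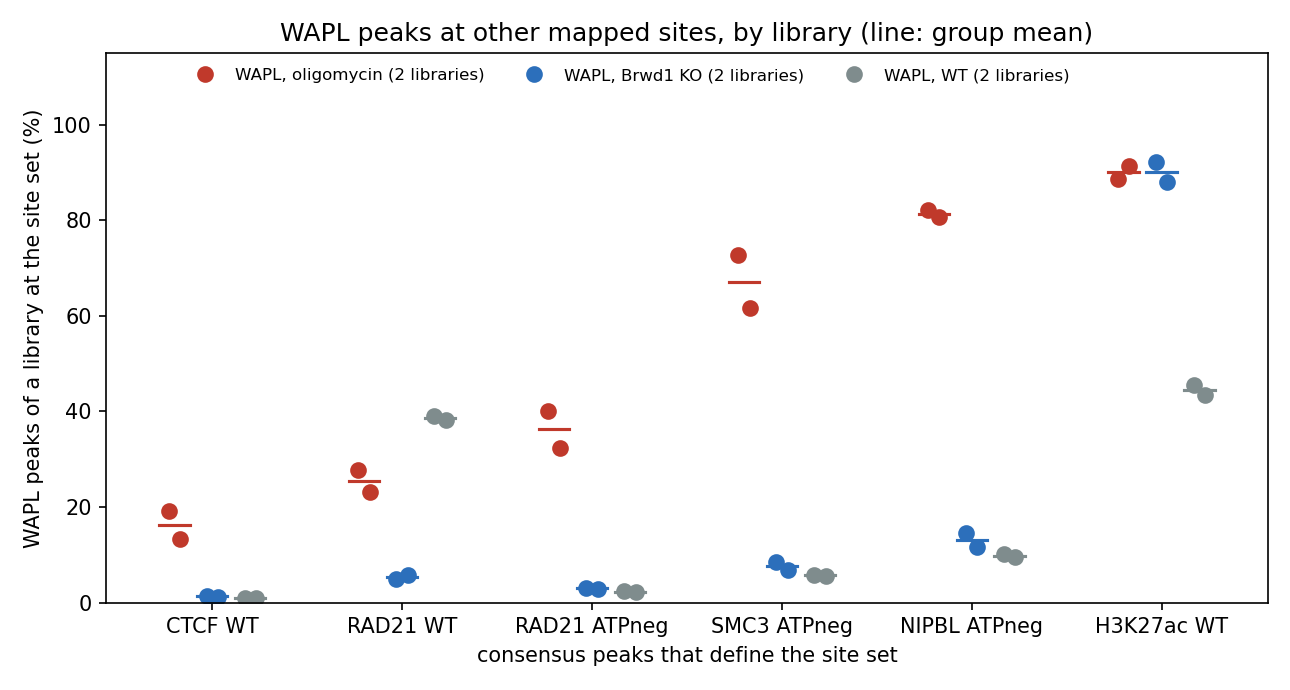
Share of each library's WAPL peaks (vertical axis, percent) that overlap consensus peaks of the target and group named on the horizontal axis; points are libraries and lines group means. At CTCF WT the ATPneg libraries sit at 19.2% and 13.3% and the KO libraries at 1.41% and 1.21%, while at H3K27ac WT the groups overlap.

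The 3 peak classes had different partners. Shared peaks lay at NIPBL peaks of ATPneg cells in 97.2%, at H3K27ac in 95.1%, at SMC3 of ATPneg cells in 88.0% and at RAD21 of KO cells in 80.8%. The level at RAD21 of KO cells depended on the list. Over all peaks of ATPneg 1 and 2, the first RAD21 KO list covered 68.3% and 66.6%, and the second 84.7% and 87.0%. Over all peaks of KO 1 and 2, they covered 13.1% and 10.7%, and 46.6% and 40.7%. CTCF of WT cells was at 20.6% of shared peaks (404 peaks) but CTCF of KO cells at 1.12% (22 peaks). By single list, WT CTCF 1 was at 20.7% of shared peaks and WT CTCF 2 at 99.8%. KO-only peaks had H3K27ac at 93.2%, NIPBL of ATPneg cells at 13.0%, SMC3 of ATPneg cells at 6.04% and WT CTCF at 0.676%. By single NIPBL list of WT cells, the first was at 87.2% of shared and 46.6% of KO-only peaks and the second at 99.3% and 64.1%. These shares describe the classes and carry no test, since peaks of a library are not independent.

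WAPL peaks were present at many of the WT CTCF sites without a KO CTCF peak. Of 829 WT CTCF consensus peaks that overlapped no KO CTCF consensus peak, 412 (49.7%) held an ATPneg WAPL peak and 539 (65.0%) a KO WAPL peak. Of the 15777 WT CTCF peaks also present in KO cells, 87 (0.551%) held an ATPneg and 157 (0.995%) a KO WAPL peak. In both groups, a WAPL peak was thus far more frequent at the few CTCF sites listed in WT cells alone than at the many listed in both genotypes. The second WT CTCF list, which stands apart, takes part in both sets. Input density also differed. Of 2090 ATPneg consensus peaks in WAPL regions over 100 input reads per kb, 431 were at WT CTCF and 31 at KO CTCF. The numbers were 12 and 10 of the 20 in regions with fewer input reads, and 56 and 58 of the 73 in no WAPL region. The part of input density in this pattern was not tested.

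ATPneg-only peaks fell into a set inside WAPL regions and a set outside them, a split made after the values were seen. The count table lists merged WAPL regions with counts for KO and WT libraries but not for ATPneg, and 150 ATPneg-only peaks lay in one while 73 lay in none. A lack of KO and WT WAPL peaks at the 73 thus goes with the split. Of the 73, 56 (76.7%) were at WT CTCF, 58 (79.5%) at KO CTCF, 62 (84.9%) at SMC3 of ATPneg cells and 57 (78.1%) at SMC3 of KO cells, but 3 (4.11%) each at SMC3 and RAD21 of WT cells, 2 (2.74%) at H3K27ac and 8 (10.96%) at NIPBL of ATPneg cells. Their median width was 207 bp, and 12 (16.4%) were at promoters. The 150 had a median width of 120.5 bp, with H3K27ac at 82.7%, NIPBL of ATPneg cells at 92.0%, WT CTCF at 26.0% and KO CTCF at 12.7%. Most of the set outside the regions thus had CTCF in both genotypes and SMC3 in KO and ATPneg cells, but few had SMC3 in untreated WT cells. Among all peaks of the single ATPneg lists with neither a WAPL region nor a KO consensus peak (216 and 178 peaks, most of them not in the consensus set), the median score percentiles were 18.9 and 16.4, although the 73 include the highest-scoring peak of both lists, described below.

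**Figure D3:**
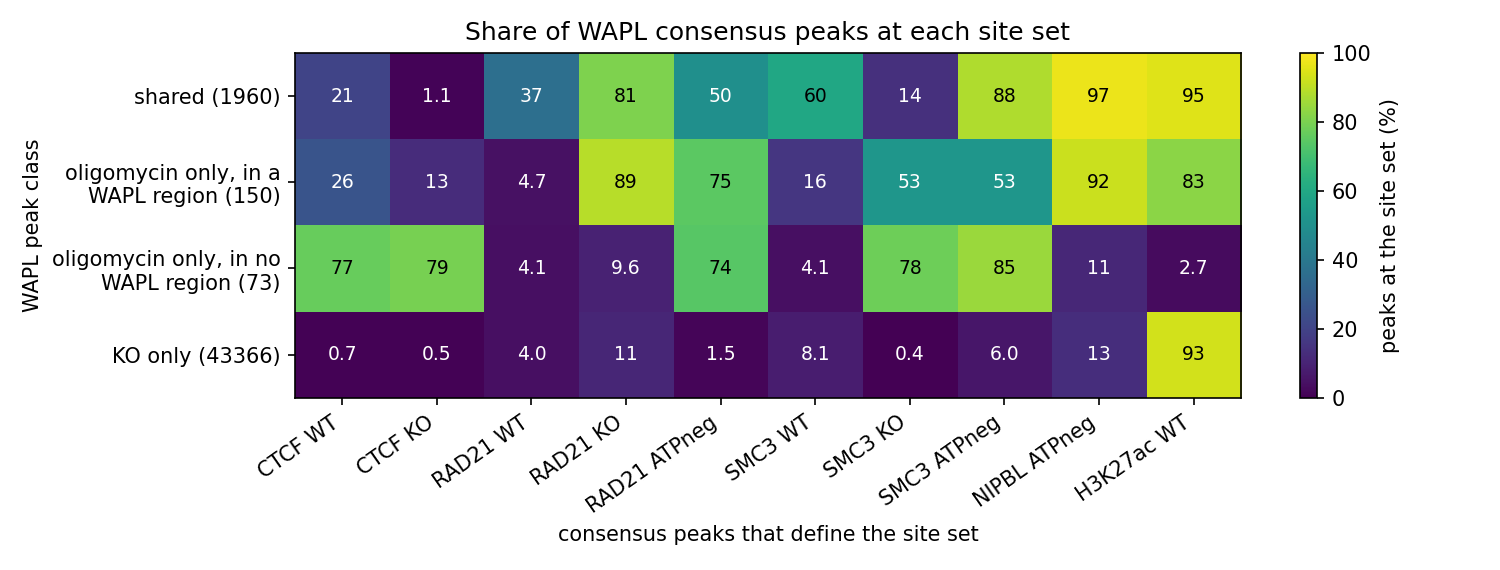
Share (percent, color and printed value) of WAPL consensus peaks in each class (rows, with the number of peaks) that overlap consensus peaks of each target and group (columns). The 73 ATPneg-only peaks outside WAPL regions have CTCF WT at 76.7% and H3K27ac WT at 2.74%, and the shared peaks 20.6% and 95.1%.

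The density of input reads, which measures how many reads a site collects without an antibody, moved with these classes. The median WT input density was 713 reads per kb in regions with a shared peak, 3627 in the 140 regions with an ATPneg-only peak, 244 in KO-only regions and 119 over all WAPL regions. KO input gave 760, 3918, 254 and 128. Regions under 50 WT input reads per kb held an ATPneg consensus peak in 0.0222% (10 of 45131), and those over 5000 in 11.8% (56 of 474). Ratios of WAPL reads to input were taken only in regions with at least 20 input reads (72581 of 127769 for KO 1). Their median in KO 1 was 6.18 in shared, 5.95 in ATPneg-only, 4.32 in KO-only and 3.72 in all such regions. Shared and KO-only regions were chosen with the KO peaks. In WT 1 the median was 3.25 in shared, 3.66 in ATPneg-only and 2.14 in KO-only regions. The ratios are not scaled for depth, so KO 1 and WT 1 cannot be compared by them.

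**Figure D4:**
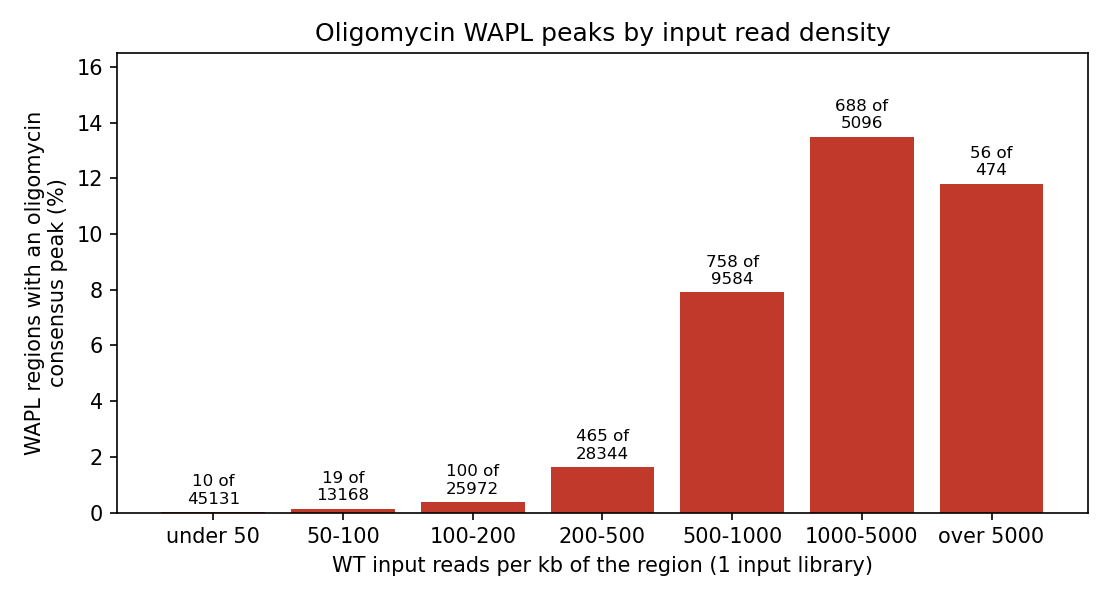
Share of WAPL regions that hold an ATPneg (oligomycin) consensus peak (vertical axis, percent) by WT input reads per kb of the region (horizontal axis), with the counts above each bar. The share is 0.0222% in the lowest class and 11.8% in the highest.

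Without the regions over 100 input reads per kb in either genotype, a threshold chosen after the data were seen, 93 of the 2183 ATPneg consensus peaks remained, of which 73 lay in no WAPL region and had no KO consensus peak. Of the 20 in low-input regions 16 were shared, against 1944 of the 2090 in dense regions, so the share of 17.2% over the 93 is set by the peaks outside the regions. Of the remaining KO peaks, 0.472% overlapped an ATPneg peak. The mean share at WT CTCF was then 61.0% for ATPneg and 1.28% for KO, the share at WT RAD21 8.38% and 12.5%, and that at H3K27ac 19.8% and 62.8%. These ATPneg shares, too, are mostly those of peaks outside the regions. Of the 20 consensus peaks in low-input regions, 12 were at WT CTCF, 9 at WT RAD21 and 5 at H3K27ac. Refitted without those regions, edgeR called all 20 remaining ATPneg regions higher in KO, against 18.1% of all regions then tested. KO-only regions were nearly as often higher in that refit (3049 of 3362, 90.7%, median log2 fold change 1.70). The 16 shared regions among the 20 were also chosen with a KO peak. The scaling of the refit was set by the low-input regions. The median log2 fold change of the 20 was 2.37 there, against 1.09 in the fit over all regions. The part of input density in the peak calls themselves was not tested.

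Reads in KO against WT cells give a measure that ATPneg peaks did not enter. edgeR's quasi-likelihood test over 126089 WAPL regions called 13.1% of all regions higher and 27.6% lower in KO than in WT (40.7% in either direction) at a Benjamini-Hochberg adjusted p under 0.05. Of the 2096 regions with an ATPneg consensus peak, 1136 (54.2%) were higher and 20 lower in KO, and their median log2 fold change was 0.41, against 0.07 over all regions. Median reads in these regions, scaled to the library size (CPM), were 32.1 and 32.2 in KO 1 and 2 and 24.4 and 23.5 in WT 1 and 2. Of the 1956 regions with a shared peak 1073 were higher and 4 lower, and of the 140 with an ATPneg-only peak 63 were higher and 16 lower, although shared and KO-only regions were chosen with the KO peaks. KO-only regions had 9195 higher and 543 lower of 43293, with a median of 0.37.

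These counts depended on single libraries and on scaling. Without KO 1 or KO 2, 12 and 33 of the ATPneg regions were called higher in KO (0.0636% and 0.164% of all regions), and DESeq2 called 485 (4.73% of all regions). Scaling to background reads moved the median of all regions by 0.45 and called 38.7% of all regions higher and 20.01% lower, and 1921 ATPneg regions higher. The median of the ATPneg regions lay 0.34 above that of all regions under edgeR's default, library-total, background and DESeq2 scaling. A change of scaling moves all regions nearly alike, so this gap could hardly differ and does not test the scaling. Of the 26 regions with a gene symbol that were called higher and are followed below, 25 lost the call without KO 1 (all but Prkdc) and 25 without KO 2 (all but Hk1), and 1, near Nfkb1, without WT 1, where leaving out a KO library leaves 1 that is assumed to vary like the WT pair. DESeq2 kept 11 of them, among which were Pgk1, Ykt6, Gtf3c5, Camk2b, Prkdc, Hk1, Pdha2, Skint6 and Tecrl. All 26 kept a positive fold change under each of these settings. These regions also held more reads, with a median of 4801 KO 1 WAPL reads per kb at shared sites against 475 over all regions, and the part of this in the number of calls was not tested.

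At the 20 ATPneg peak regions of at most 100 input reads per kb, the rise in KO was larger than over all ATPneg regions. Their median log2 fold change was 1.09, and that of all ATPneg regions 0.41. In the fit over all regions, edgeR called 12 of the 20 higher in KO, and 13.1% of all regions. Of the 20, 16 were shared and so chosen with a KO peak. Low-input KO-only regions were also mostly called higher in the refit above (90.7%). Whether the larger rise goes with ATPneg peaks or with low input was not tested. The 12 regions at a CTCF peak of WT or KO cells had 10 called higher and a median of 1.28, and the 8 at no CTCF peak 2 called and a median of 0.37. This split was made after the values were seen and carries no test.

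The peak over the promoter of Pgk1, which encodes the glycolytic enzyme phosphoglycerate kinase and whose upstream sequence is printed above, spanned X:103382078-103382648 (mm9). Its WAPL score was 86.5 and 63.0 in ATPneg, 73.5 and 78.8 in KO and 18.5 and 11.4 in WT. CTCF was present in both genotypes, with scores of 71.2 and 72.5 in WT 1 and 2 and 33.5 and 71.9 in KO 1 and 2. WAPL reads at Pgk1 were 15.4 and 14.1 CPM in KO and 6.00 and 5.54 CPM in WT, a log2 fold change of 1.35 ± 0.145 (SE, edgeR adjusted p = 0.00326). Both KO libraries lay above both WT libraries, although the edgeR adjusted p was 0.0744 without KO 1 and 0.0576 without KO 2.

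The next shared peak by score rank lay 50.5 kb downstream of the start of Ykt6, a SNARE protein of vesicle transport, at 11:5906255-5906666. It scored 99.9 and 78.6 in ATPneg, 52.9 and 57.3 in KO and 11.8 and 8.81 in WT. Its reads were 10.3 and 9.65 CPM in KO and 3.53 and 3.36 CPM in WT (log2 1.53 ± 0.173, edgeR adjusted p = 0.00381). Def8, at 8:125957934-125958299, had scores of 58.0 and 50.9 in ATPneg, 40.1 and 42.1 in KO and 10.2 and 13.7 in WT. Its reads were 5.32 and 4.59 CPM in KO and 2.61 and 2.28 CPM in WT (log2 1.02 ± 0.220, edgeR adjusted p = 0.0182). All 3 sites had CTCF and SMC3 peaks in KO cells and SMC3 peaks in ATPneg cells.

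Of the other low-input sites, some were called higher in KO and some did not pass the test. Near Gtf3c5, a subunit of the RNA polymerase III factor TFIIIC, WAPL scored 46.2 and 35.1 in ATPneg and 14.9 and 11.03 in KO and had no WT peak. Its reads were 2.23 and 1.91 CPM in KO and 0.387 and 0.841 CPM in WT (log2 1.75 ± 0.367, edgeR adjusted p = 0.0168). At the peak in Camk2b, which encodes a calcium-dependent kinase, reads were 2.91 and 2.48 CPM in KO and 0.920 and 0.940 CPM in WT (log2 1.53, edgeR adjusted p = 0.00833). Upstream of Nfkb1, the NF-κB subunit p105 and p50, an ATPneg-only peak had 1.24 and 1.07 CPM in KO and 0.290 and 0.544 CPM in WT (log2 1.46, edgeR adjusted p = 0.0262). Gapt, a B cell membrane adaptor, had scores of 44.8 and 31.4 in ATPneg and a peak of 10.96 in KO 1 alone. Its log2 fold change of 1.203 ± 0.426 did not pass the test (edgeR adjusted p = 0.0708), and neither did those of Klk1b1 (0.36), Atg7 (0.14) and Zfp954 (0.71). At 1 shared low-input site with no gene within 200 kb, at X:32513762-32513873, reads were 4.86 and 4.49 CPM in KO and 5.52 and 4.55 CPM in WT (log2 -0.11, edgeR adjusted p = 0.704).

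**Figure D5:**
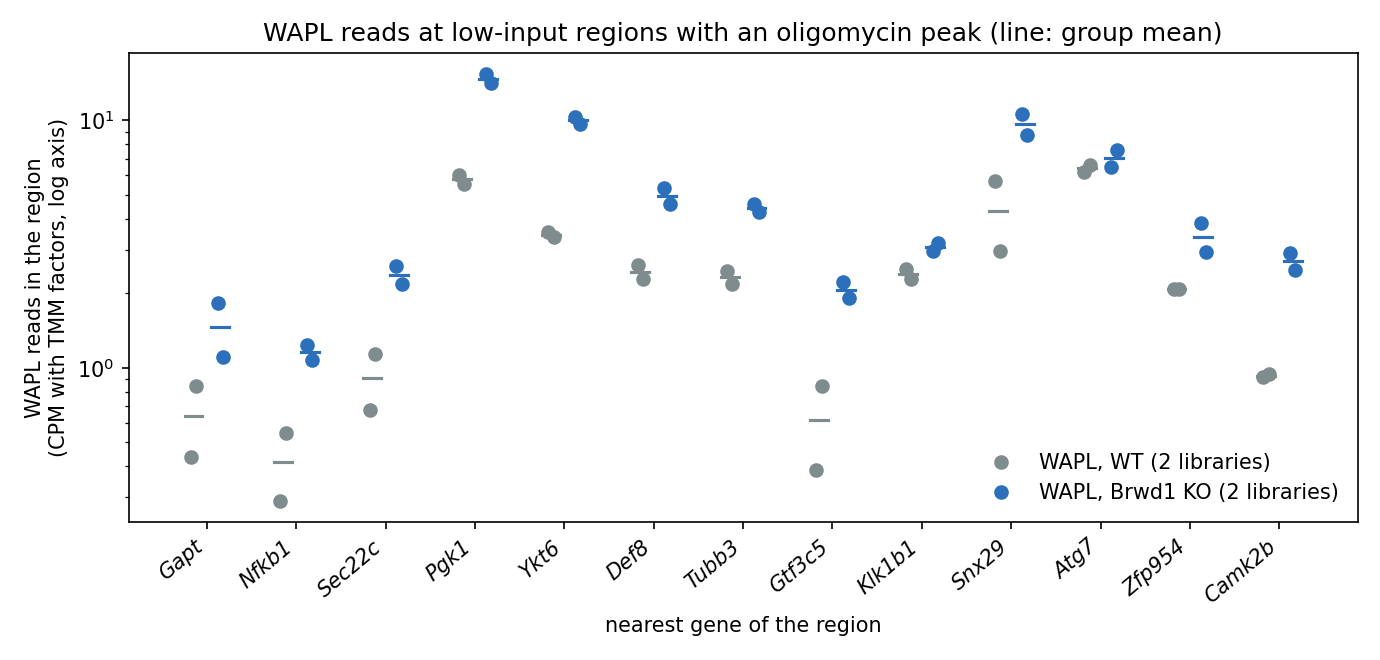
WAPL reads in CPM (vertical axis, log scale) in KO and WT libraries at the ATPneg peak regions of at most 100 input reads per kb that have a named nearest gene (horizontal axis); points are libraries and lines group means. Both KO libraries lie above both WT libraries at Pgk1 (15.4 and 14.1 against 6.00 and 5.54) and Ykt6, while the means are closer at Atg7 and Klk1b1.

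The highest-scoring peak of both ATPneg lists had no counterpart in KO or WT cells. It lay at 6:70672554-70672902 over the start of IgkJ3, a joining segment of the immunoglobulin kappa light chain locus that small pre-B cells rearrange. Its WAPL score was 101 in ATPneg 1 and 122 in ATPneg 2. At the same place, NIPBL scored 50.1 and 63.2, SMC3 114 and 87.4 and RAD21 26.4 and 123 in the ATPneg libraries 1 and 2. No WT or KO list of any target in the series held a peak there, and neither did the CTCF lists. The site has no row in the WAPL count table, so reads there were not compared.

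A second site with this pattern lay inside Brwd1 itself, at 16:96281084-96281248, 23.9 kb downstream of its annotated start. WAPL scored 23.8 and 33.0, SMC3 116 and 111, RAD21 9.74 and 61.8 and NIPBL 24.2 and 16.6 in ATPneg 1 and 2. Again no WT or KO list held a peak there. Both sites were outside WAPL regions and had no CTCF peak, unlike 58 of the 73 peaks of that set. Their values rest on peak scores alone, and the ATPneg libraries carry the cultured and treated WT cells.

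Among the first 8 ATPneg-only peaks by score rank, 5 lacked a KO 1 peak alone and Gapt a KO 2 peak alone. Peaks near Ppp1r12a (a subunit of myosin phosphatase), Ighd3-2 (a heavy chain diversity segment), Rsl24d1 (a ribosome assembly factor), Actrt2 and Il24 had a peak in KO 2 and in both WT lists. At Ppp1r12a the scores were 37.0 and 43.2 in ATPneg, 37.9 in KO 2 and 55.2 and 56.3 in WT, with none in KO 1. Its reads were 156 and 161 CPM in KO and 148 and 144 CPM in WT, a log2 fold change of 0.12 (edgeR adjusted p = 0.181). At Ighd3-2 the log2 fold change was 0.22 (adjusted p = 0.0499) and at Rsl24d1 0.42 (adjusted p = 0.00993), both by edgeR. The missing KO 1 peak was thus not accompanied by fewer KO reads at these 3 sites.

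Other ATPneg-only promoter peaks outside WAPL regions scored lower than that at IgkJ3. Wdr77, a partner of the arginine methyltransferase PRMT5, had scores of 20.7 and 24.6, Comtd1 11.9 and 14.8, Ankrd39 13.8 and 10.7 and Cdk12, a transcriptional kinase, 11.7 and 11.1 in ATPneg 1 and 2. Psmd5, a proteasome assembly factor, had 7.91 and 7.64, Gins4, a replication factor, 8.96 and 5.63, and Scai 6.57 and 5.48. Comtd1, Ankrd39, Gins4 and Scai had CTCF in both genotypes and SMC3 in ATPneg and KO cells. Wdr77 and Psmd5 had SMC3 of ATPneg cells but no CTCF, and Cdk12 had H3K27ac and neither. None of the 7 had a WAPL peak in KO or WT. The WAPL regions carry counts of KO and WT libraries alone, and 0 of the 73 peaks outside them had a WT consensus peak. The absence thus goes with the choice and is no separate result.

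The strongest shared peaks in dense-input regions were at Pdha2, Bpi, Skint6, Mill1 and Krtap11-1. The site near Pdha2, a testis form of pyruvate dehydrogenase, scored 32.6 and 33.0 in ATPneg, 43.4 and 67.5 in KO and 52.1 and 66.2 in WT. Its reads were 37.4 and 39.0 CPM in KO and 26.9 and 24.0 CPM in WT (log2 0.59, edgeR adjusted p = 0.00996). The sites of Skint6, Mill1, Bpi and Krtap11-1 had log2 fold changes of 0.68, 0.45, 0.44 and 0.38, all called higher in KO by edgeR. Of all shared regions 54.9% were called higher, and with DESeq2 the sites of Bpi, Mill1 and Krtap11-1 did not pass. Ranked within each list, these 5 sites lay at percentiles of 94.4 to 99.5 in the KO lists and 99.48 to 99.98 in the WT lists. The KO scores entered the choice of these sites, so high KO percentiles follow from it.

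Few genes of the fixed pathway lists had an ATPneg peak. Each peak was given its nearest gene, within 200 kb, and 1364 of 22277 genes (6.12%) had an ATPneg consensus peak and 11997 (53.9%) a KO one. Of 21 genes of ATP synthase and oxidative phosphorylation, the system that oligomycin blocks, 0 had an ATPneg and 4 a KO peak. Of 19 glycolysis and energy stress genes, Hk1 and Pgk1 had an ATPneg peak and 10 a KO peak. Of 16 chaperone and stress genes, Hsp90ab1 and Jun had an ATPneg and 7 a KO peak, and of 16 ribosomal protein genes 0 and 4.

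B cell genes, like genes in general, had a KO peak more often than an ATPneg peak (53.9% and 6.12% over all genes). Of 20 B lineage transcription factors 17 had a KO peak, but only Foxo1, which drives Rag expression, an ATPneg peak. Of 21 genes of the pre-B receptor and immunoglobulin recombination, 12 had a KO peak, and Prkdc and Rag2 an ATPneg peak. Of 15 proliferation genes 9 had a KO peak and 0 an ATPneg peak, and of 16 cohesin, CTCF and BRWD1 genes 7 and 1, the latter Brwd1. Among marker genes an ATPneg peak was nearest to 0 of 10 small pre-B, 0 of 10 T cell, 1 of 9 erythroid (Hbb-b1) and 1 of 9 myeloid (S100a9) genes, and a KO peak to 5, 8, 2 and 6. The counts follow the list lengths, and no list is called particular to a group.

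Shared peaks at these genes scored lower than the leading ones. Prkdc, the catalytic subunit of the DNA-dependent kinase that joins recombination breaks, had a gene body peak of 8.71 and 9.80 in ATPneg, 21.7 and 29.6 in KO and 17.0 and 14.2 in WT. Its reads were 23.1 and 29.3 CPM in KO and 12.4 and 11.9 CPM in WT (log2 1.11 ± 0.148, edgeR adjusted p = 0.00587). Hk1, which encodes hexokinase, had reads of 107 and 87.8 CPM in KO and 52.9 and 56.1 CPM in WT (log2 0.84 ± 0.116, edgeR adjusted p = 0.00623). Both sites separated the genotypes, and Prkdc, like Pgk1, had CTCF in both.

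Other peaks lay far from the gene they were assigned to. The peak assigned to Rag2, a recombinase subunit, lay -164.6 kb from its start and scored 14.5 and 13.5 in ATPneg, 19.3 and 35.1 in KO and 22.9 and 28.3 in WT, with a log2 fold change of 0.36 (edgeR adjusted p = 0.0196). The shared Foxo1 peak, 147.9 kb downstream of its start, scored 13.0 and 17.3 in ATPneg, 20.7 and 30.5 in KO and 45.5 and 44.2 in WT. Its log2 fold change of 0.32 did not pass the test (edgeR adjusted p = 0.0801), nor did that near Jun, a stress-induced transcription factor (0.21, adjusted p = 0.393). A nearest gene is a label of position, and no peak was tied to a gene's expression.

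KO-only peaks included the highest scores of the KO lists. The peaks named here were chosen by those scores, so their reads in KO against WT are not independent of the choice. In the gene body of Matn3, a cartilage matrix protein, WAPL scored 104 and 121 in KO 1 and 2 and 59.4 and 63.4 in WT, with no ATPneg peak. Its reads did not differ by the test (log2 0.10, edgeR adjusted p = 0.773). In Tecrl the scores were 73.4 and 112 in KO and 9.27 and 12.4 in WT, with reads of 16.3 and 14.5 CPM in KO and 7.41 and 10.6 CPM in WT (log2 0.77, edgeR adjusted p = 0.0307). By rank within its list, the Matn3 peak was at percentile 100 in KO 1 and 2 and at 99.87 and 99.92 in WT, and the Tecrl peak at 99.98 and 99.9985 in KO and 51.6 and 72.1 in WT.

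Of the KO-only sites assigned to genes of the B lineage, proliferation and energy stress, some were called higher in KO and most were not. These sites were chosen by their scores in the same KO libraries, so the comparison with WT is not independent of the choice. Among all KO-only regions 21.2% were called higher. WAPL reads rose by a log2 of 0.78 at the site 147.0 kb downstream of Mycn, a proliferation factor (edgeR adjusted p = 0.0225). In the gene body of Ccnd3, a cyclin needed by pre-B cells, 44.2 kb from its start, they rose by 0.44 (edgeR adjusted p = 0.0427). The site 65.3 kb upstream of Hif1a, the hypoxia factor, had no WT peak, and its reads rose by 0.84 (edgeR adjusted p = 0.0283). None of these 3 passed with DESeq2, where the adjusted p was 0.0717 for Mycn, 0.236 for Ccnd3 and 0.138 for Hif1a. The sites near Cxcr4, a marrow homing receptor (0.37, adjusted p = 0.101), Il7r (0.25, 0.0880) and Irf4 (0.22, 0.391), with edgeR adjusted p in each case, did not pass. Neither did those near Runx1 (0.26, 0.220), Xrcc5 (0.11, 0.523) and Foxo1 (0.19, 0.474), by the same test. Near Myc the log2 fold change was -0.45 with an edgeR adjusted p of 0.0721. Near Klf2, a quiescence factor, it was -0.46 (edgeR adjusted p = 0.340), and the KO-only peak in Wapal, the gene of WAPL itself, gave 0.29 (edgeR adjusted p = 0.326).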

How the data were processed

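The authors deposited, for each ChIP library, a list of high-quality peaks with a score; BWA, Picard, MACS2, bedtools, featureCounts and edgeR and the build mm9 are named, without versions or roles, in the submitters' processing notes. The deposited WAPL table holds raw read counts per merged region for KO, WT and input libraries, per the file headers; the deposited input-subtracted signal tables gave nearest genes only, and 2 input columns that match no sample were not used. The members and gene lists were chosen with earlier results of these data known. Overlaps of at least 1 base were computed with bedtools 2.31.1, and exact permutation tests with scipy 1.17.1. Intervals are exact binomial (Clopper-Pearson, 95%) and, with tests, cover counting error only. Counts were tested with edgeR 4.0.16 (TMM, filterByExpr, quasi-likelihood test, Benjamini-Hochberg over all regions) in R 4.3.3, with DESeq2 1.42.0 as an alternative. The scripts were tested on simulated data. Genes are those nearest in the deposited annotated tables, within 200 kb. Named were the first 8 peaks of each class by mean score percentile, up to 2 per gene list and class, and fixed genes of the B lineage, passing over predicted genes. KO scores enter this ranking for shared and KO-only peaks, so their reads in KO against WT are not independent of it. Promoter peaks, low-input sites and peaks outside WAPL regions were added after their values were seen. Alternatives were a 50% overlap, a score minimum 2 times higher, the union of replicates, replicate 2 peaks, KO lists of equal length, other scalings, no filter, a replicate block, each library left out and, chosen after seeing the data, no input-dense regions. P-values measure the spread between these few libraries. Peaks on unplaced contigs were kept. Part of the marker check is not reported here.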

Additional observations from a re-analysis of the deposited data

How the results depend on the processing

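The ATPneg share at KO peaks (89.8%) was 34.6% with the top-scoring KO peaks in lists of equal length, 17.2% without input-dense regions (16 of the 20 in low-input regions, and 0 of the 73 outside WAPL regions) and 85.3% to 94.8% with 1 library left out. The KO share at ATPneg peaks (4.32%) was 6.89% with the union of replicates, 26.0% with equal length, 0.472% without input-dense regions and 3.004% to 8.69% with 1 library left out. The difference at WT RAD21 (20.1 percentage points) was -0.75 with equal length and -4.16 without input-dense regions, and that in width (-11 bp) was 31.25 bp without them. The H3K27ac difference (-0.03 percentage points) was 0.0703 with the union, and 1.35 without ATPneg 1 and 2.09 without KO 1. The CTCF and promoter differences kept their direction under every alternative run; that at CTCF was 43.9 points with the union, where the CTCF list that stands apart counts alone. A single left-out library gave 11.95 to 17.9 points at CTCF, 17.8 to 22.5 at RAD21, -2.15 to 2.09 at H3K27ac and 0.754 to 0.974 at promoters.

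Of regions with an ATPneg peak, 1136 were called higher and 20 lower in KO; background scaling gave 1921 higher, DESeq2 485, and leaving out 1 library 12 to 1413 higher and 15 to 42 lower. Without input-dense regions 20 were tested, of which 20 were higher and 0 lower by edgeR. In that fit 90.7% of KO-only and 18.1% of all regions tested were higher. No pairing by replicate number was seen, as first-replicate deviations correlated by 0.0005 over regions. With 2 libraries per group this cannot show whether same-numbered libraries were prepared together. A replicate block gave 991 higher and 19 lower, and 5 of the 26 named calls did not pass, among them Ccnd3, Hif1a and Ighd3-2. Some fold changes that did not pass the test reversed. With a WT library left out, they ran from -0.028 to 0.49 near Jun, -0.0051 to 0.43 at the KO-only site near Foxo1, -0.88 to 0.14 near Klf2 and -0.24 to 0.57 near Matn3; the cause was not tested. Background scaling, which moved the median of all regions by 0.45, gave 0.0076 near Myc. ATPneg depth is unknown, so a missing ATPneg peak does not show that WAPL was absent.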
